A study of Mus musculus with 14 samples.

Results

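A set of 7 genes that serve megakaryocytes and platelets was followed through the peak lists. They are Pf4, Ppbp, Gp1ba, Gp9, Gp6, Vwf and Treml1, 7 of the 21774 protein-coding genes that RefSeq places on the assembled mouse chromosomes. The set was chosen by name, and a peak was assigned to a gene when it overlapped the gene span on GRCm38 (mm10) extended by 20 kb on each side. Chromatin immunoprecipitation with sequencing (ChIP-seq) had been used to map where transcription factors (TFs) bound in cells differentiated in culture from a strain 129 mouse embryonic stem (ES) cell line that carries a Brachyury (Bry) GFP reporter. The lists analysed here cover 7 TFs, and other maps of the study were not used. They number 14, 1 for each pairing of an antibody with a sorted population, and together they held 158488 peaks of 400 bp.

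In the lists used here, the mesoderm population (MES; Bry.GFP+, FLK1-) is represented by C/EBPβ and ELK4, and the hemangioblast population (HB; Bry.GFP+, FLK1+) by C/EBPβ and GATA2. Hemogenic endothelium (HE; Tie2+, Ckit+, CD41-) is represented by C/EBPβ, mapped by a protocol with added carrier molecules because the cells were few. Hematopoietic progenitors (HP; CD41+) are represented by C/EBPβ, GATA1, GATA2, GFI1B, RUNX1 and PU.1, the product of Spi1. Macrophages (MAC; CD11b+), grown on from CD41+ cells, are represented by C/EBPβ, RUNX1 and PU.1. All populations came from the same reporter line, and the labels give no treatment or gene deletion for any of them. CD41, on which HP cells were sorted, is the platelet integrin chain encoded by Itga2b, and neither HP nor any other sorted population was a preparation of megakaryocytes or platelets. The lists contain no expression values, and the labelled cell types were not checked against their markers here. Every combination of factor and stage had 1 list, there were no replicates, and no difference between lists could be set against a spread between samples. The lists ranged from 72 peaks (MAC RUNX1) to 82866 (MAC PU.1). The calling threshold had been chosen separately for each list, so a gene with no peak in a list is a gene where no site passed that threshold.

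Megakaryocytes are the large bone marrow cells that shed platelets, and they fill the platelet with granules and cover it with adhesion receptors. Platelets catch on exposed vessel wall through von Willebrand factor and the receptor complex that holds GP1BA and GP9, respond to collagen through GP6, and release the chemokines PF4 and PPBP from alpha granules. GATA1, GATA2, GFI1B and RUNX1 are known regulators of the megakaryocyte lineage, whereas PU.1 and C/EBPβ are known for their roles in myeloid cells such as macrophages.

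The sites in HP at which the account turns are shown first, as the GRCm38 plus strand, 5′ to 3′. At Gp1ba, the 250 bases before the transcription start site (TSS) lie under overlapping GATA1 and GATA2 peaks, and capitals mark the letters GATAA on either strand. At Pf4, the 250 bases before the TSS reach the centre of an HP PU.1 peak, and capitals mark the PU.1 consensus GAGGAAGT, here on the minus strand.
Gp1ba promoter, chr11:70638872-70639121: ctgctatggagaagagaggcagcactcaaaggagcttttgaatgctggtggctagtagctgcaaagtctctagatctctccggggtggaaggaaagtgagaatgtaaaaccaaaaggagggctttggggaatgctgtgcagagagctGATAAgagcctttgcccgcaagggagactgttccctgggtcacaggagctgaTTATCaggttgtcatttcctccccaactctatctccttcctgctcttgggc
Pf4 promoter, chr5:90772185-90772434: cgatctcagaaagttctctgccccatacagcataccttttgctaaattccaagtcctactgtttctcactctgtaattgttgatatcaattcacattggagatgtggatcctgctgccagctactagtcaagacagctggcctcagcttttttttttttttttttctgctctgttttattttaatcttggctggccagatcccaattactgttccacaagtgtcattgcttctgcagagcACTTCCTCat

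A further 3 HP PU.1 peaks are shown by their central 150 bases, with the shorter letters GAGGAA in capitals where they occur on either strand. They are the HP PU.1 peaks in the windows of Pf4, Treml1 and Vwf that lie farther than 2 kb from the TSS of these genes.
Between Pf4 and Cxcl3, chr5:90783778-90783927: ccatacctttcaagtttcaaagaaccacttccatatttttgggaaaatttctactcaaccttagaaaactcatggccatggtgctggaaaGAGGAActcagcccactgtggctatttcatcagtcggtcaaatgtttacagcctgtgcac
Trem2 intron, near Treml1, chr17:48347420-48347569: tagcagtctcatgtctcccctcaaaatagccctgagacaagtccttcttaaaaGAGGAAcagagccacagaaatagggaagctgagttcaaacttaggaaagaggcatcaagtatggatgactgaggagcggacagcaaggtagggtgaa
Vwf intron, chr6:125603932-125604081: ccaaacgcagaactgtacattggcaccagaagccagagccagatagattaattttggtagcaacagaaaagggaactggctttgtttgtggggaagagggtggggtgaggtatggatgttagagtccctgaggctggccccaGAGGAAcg

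Of the 98 pairs of gene and list, 21 had a peak, and 14 of these came from the MAC C/EBPβ and MAC PU.1 lists, in which all 7 genes had at least 1. Such a peak was common, being found at 73.8% of all coding genes for MAC C/EBPβ and at 79.1% for MAC PU.1. In HP, PU.1 had a peak at 4 of the 7 genes (Pf4, Ppbp, Vwf and Treml1) against 38.2% of coding genes. Pf4 and Ppbp were called by the same 3 peaks. With each peak given to the coding gene of the nearest TSS, HP PU.1 was at 2 genes, against 29.7% of coding genes. GATA1 and GATA2 each had a peak at 1 gene, Gp1ba, against 1.75% and 3.36% of coding genes, and GFI1B had a peak at the same gene against 11.8%. No peak lay at any of the 7 genes in the other 8 lists. In those lists the share of coding genes with a peak was 6.47% for MES C/EBPβ, 4.66% for MES ELK4, 4.24% for HB C/EBPβ, 0.363% for HB GATA2, 0.684% for HE C/EBPβ, 14.8% for HP C/EBPβ, 7.79% for HP RUNX1 and 0.478% for MAC RUNX1. A count of 0 of 7 is close to each of these shares.

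**Figure D1:**
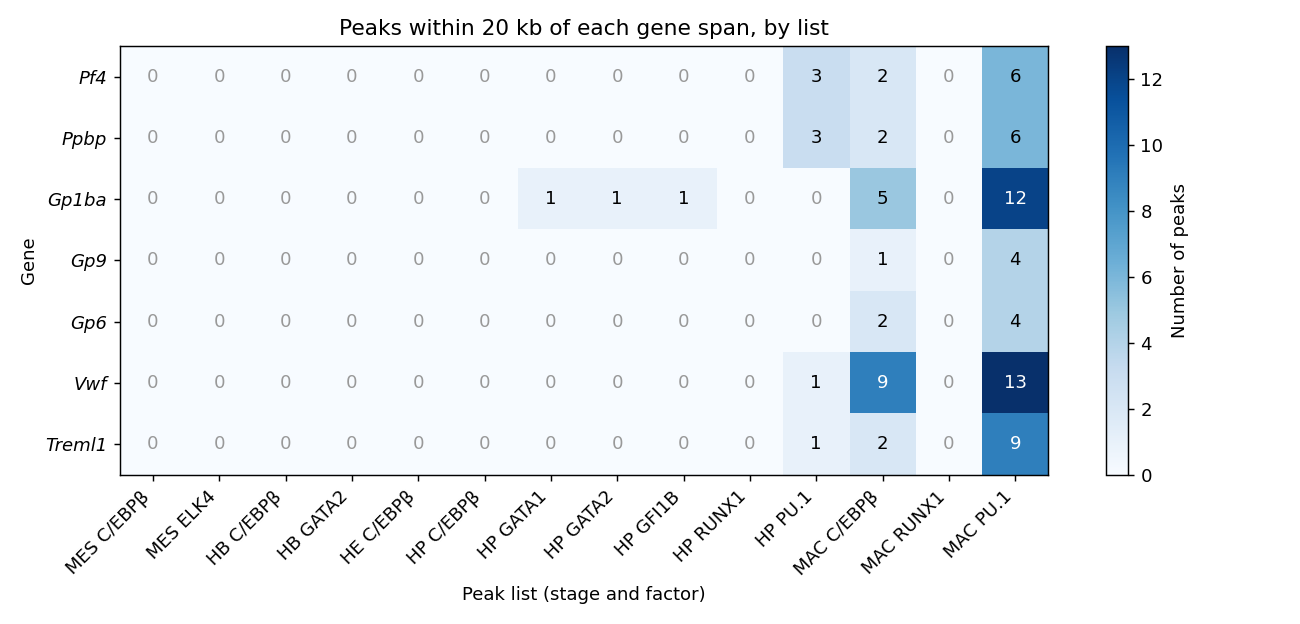
Number of peaks (colour and digits) within 20 kb of the span of each gene (rows) in each of the 14 lists (columns, stage and factor). Counts sit in the MAC PU.1, MAC C/EBPβ and HP PU.1 columns, and Gp1ba is the row with GATA1, GATA2 and GFI1B peaks, 1 of each.

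The windows held 77 different peaks. MAC PU.1 gave 48 of them, MAC C/EBPβ 21, HP PU.1 5, and HP GATA1, GATA2 and GFI1B 1 each. Of the 77, 39 had a member as the coding gene with the nearest TSS and 38 had another gene. Of these 38, 10 lay inside a member's own span, 8 in Vwf and 2 in Gp6, and 28 did not. In all, 9 peaks had their centre within 2 kb of a member TSS. Merging all lists wherever peaks overlapped gave 58 regions in the windows. MAC lists alone made up 51 regions, of which 32 were MAC PU.1 alone, 9 MAC C/EBPβ alone and 10 both. The other 7 included an HP list, namely 4 with PU.1 in HP and in MAC, 1 with these and MAC C/EBPβ, 1 with GATA1 and GATA2, and 1 with GFI1B and both MAC factors.

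**Figure D2:**
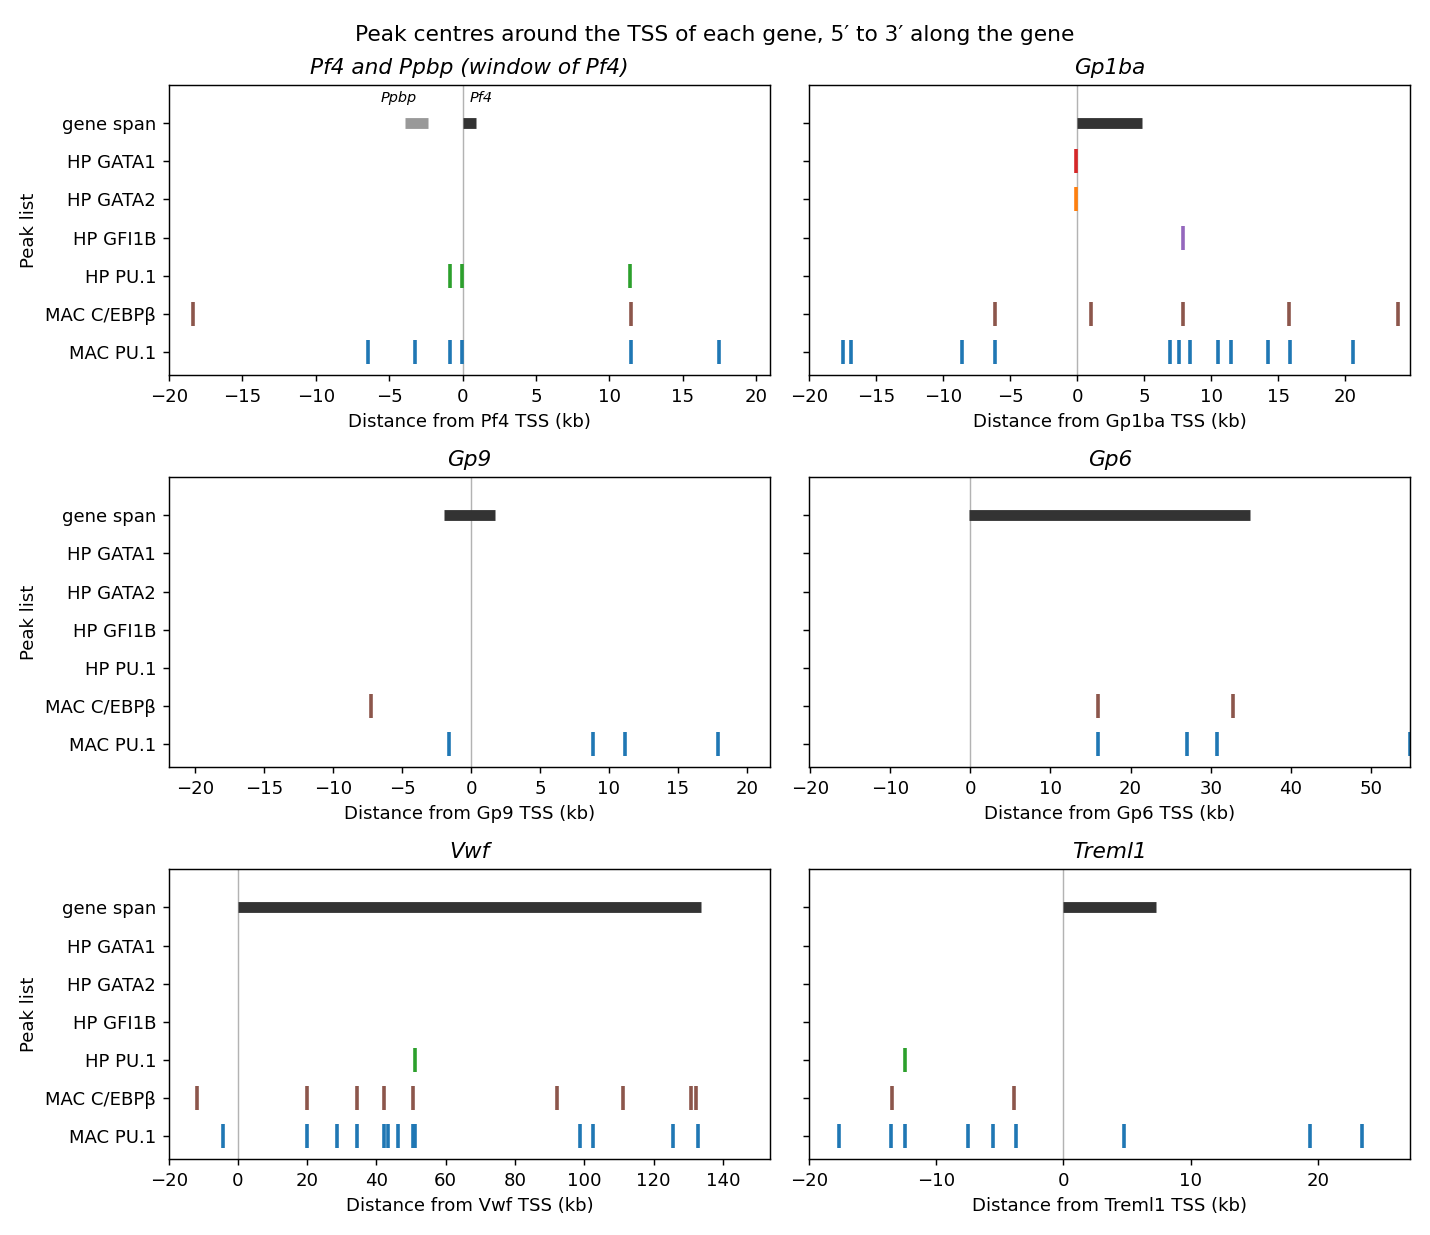
Centres of peaks (ticks) by list (rows) against the distance in kb from the TSS of each gene, positive along its transcription, with gene spans as bars (Ppbp in light grey) and the full window on each x axis. The GATA1 and GATA2 ticks stand at the Gp1ba TSS, and each HP PU.1 tick stands over a MAC PU.1 tick.

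The granule chemokine genes Pf4 and Ppbp lie beside each other on chromosome 5, and they shared every peak because their windows overlap. Pf4, chr5:90772435-90773383, encodes platelet factor 4, which binds heparin, and Ppbp, chr5:90768518-90770063, encodes the precursor of chemokines that attract neutrophils. Each window held 3 HP PU.1 peaks, 2 MAC C/EBPβ peaks and 6 MAC PU.1 peaks. No GATA1, GATA2, GFI1B or RUNX1 peak lay there.

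The nearest HP PU.1 peak to the Pf4 TSS, chr5:90772229-90772628, had its centre 7 bp before it. The MAC PU.1 peak at the same place had its centre 8 bp before it. Of all coding genes, 0.299% had an HP PU.1 peak centre as near to their most 5′ curated TSS. Within 2 kb of any curated TSS, 9.4% had one. The PU.1 consensus in the Pf4 promoter shown above begins 10 bases before the TSS, close to the centre of both peaks, and 3.2% of the 32851 RefSeq promoter sequences of 300 bases (250 before to 50 after the TSS) hold these letters on either strand. In the same window the GATA letters AGATAA occurred 36 bases after the TSS (11.2% of promoters), the C/EBP letters TTGCNNAA 212 bases before it (10.8%) and the GFI1B letters AATCNNNGC 68 bases before it (10.3%), although no peak of GATA1, GATA2 or GFI1B was called.

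Another HP PU.1 peak, chr5:90783653-90784052, was centred 11417 bp after the Pf4 TSS and 2249 bp from the TSS of Cxcl3, another chemokine gene. At this site MAC PU.1 and MAC C/EBPβ were also called, 11438 and 11442 bp after the Pf4 TSS. It was the only region near the 7 genes in which PU.1 in HP, PU.1 in MAC and C/EBPβ in MAC all met.

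A further 3 MAC PU.1 peaks at this cluster were not accompanied by HP PU.1. One lay in a coding exon of Ppbp, 659 bp after its TSS (chr5:90768978-90769377), another 2515 bp before the Ppbp TSS, and the last 17460 bp after the Pf4 TSS, nearest to Cxcl3. The remaining MAC C/EBPβ peak lay 18355 bp before the Pf4 TSS, and its nearest coding gene was the chemokine gene Cxcl5. The Ppbp promoter sequence held the GFI1B letters 202 bases before the TSS and the E-box CAGATG, a letter group known from TAL1 and its partners, 212 bases before it (17.2% of promoters).

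Gp1ba, chr11:70639102-70643986, encodes the subunit of the platelet receptor that binds von Willebrand factor. With 20 kb on each side, it was the member with peaks in the most lists. Gp1ba had 1 HP GATA1 peak, 1 HP GATA2 peak, 1 HP GFI1B peak, 5 MAC C/EBPβ peaks and 12 MAC PU.1 peaks. It had no HP PU.1 peak, and the nearest was 28.31 kb from the TSS (33.1% of coding genes had one as near).

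The GATA1 peak, chr11:70638866-70639265, was centred 57 bp before the Gp1ba TSS. The GATA2 peak, chr11:70638823-70639222, was centred 100 bp before it, so that the centres stood 43 bp apart. GATA1 was called within 2 kb of a TSS at 0.308% of coding genes and GATA2 at 0.735%. By the most 5′ curated TSS of each gene, a GATA1 centre as near as at Gp1ba was found for 0.0413% of coding genes. For GATA2 it was 0.156%. Over the whole lists, 41.6% of the 250 GATA1 peaks overlapped a GATA2 peak (exact 95% interval 35.4 to 48.0%, which covers counting error only) and 19.6% of the 530 GATA2 peaks overlapped a GATA1 peak (16.3 to 23.3%).

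Neither of these peaks contained AGATAA, the GATA letters searched first, which occurred in 64.0% of all HP GATA1 peaks and 57.9% of all HP GATA2 peaks. The shorter letters GATAA, searched after the peaks had been seen, occurred at 2 places in each of them, 103 bases before the TSS on the plus strand and 51 bases before it on the minus strand. GATAA was present in 86.8% of HP GATA1 peaks, in 77.9% of HP GATA2 peaks and in 25.4% of promoter sequences. No MAC peak overlapped the GATA1 peak or the GATA2 peak. The closest MAC peak, of C/EBPβ, lay in the Gp1ba coding exon 1001 bp after the TSS, and the closest MAC PU.1 peak lay 6124 bp before it.

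The GFI1B peak, chr11:70646807-70647206, was centred 7884 bp after the Gp1ba TSS but 33 bp from the TSS of Slc25a11, a mitochondrial carrier gene, in an untranslated exon of that gene. It overlapped a MAC C/EBPβ peak centred at 7876 bp and a MAC PU.1 peak centred at 7607 bp. GFI1B letters were not found in it, against 44.9% of all HP GFI1B peaks.

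Most MAC peaks near Gp1ba lay at other genes of this gene-dense stretch. The MAC PU.1 peaks on the 3′ side had the TSS of Slc25a11, Rnf167, Pfn1 or Eno3 as the nearest, and 2 peaks on the 5′ side had that of Chrne, a subunit gene of the muscle acetylcholine receptor. Pfn1, which encodes the actin-binding protein profilin, had a pair of overlapping MAC C/EBPβ and MAC PU.1 peaks 264 and 363 bp from its TSS. Upstream of Gp1ba, the MAC C/EBPβ and MAC PU.1 peaks centred 6152 and 6124 bp before the TSS overlapped within the lncRNA gene Gm12315.

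Gp9, chr6:87776131-87779786, encodes a small subunit of the same receptor, and its window held peaks only from the MAC lists, 1 of C/EBPβ and 4 of PU.1. The MAC PU.1 peak closest to it, chr6:87776302-87776701, was centred 1569 bp before the curated TSS, inside the span of a predicted Gp9 transcript. The other MAC PU.1 peaks were 8856, 11199 and 17926 bp after the TSS, the last nearest to Rab43, and the C/EBPβ peak was 7271 bp before it. In HP, the nearest PU.1 peak was 26.87 kb away, the nearest RUNX1 peak 60.91 kb and the nearest GATA2 peak 235.9 kb. Of coding genes, 32.2%, 12.1% and 16.5% had one as near. The Gp9 promoter held GATAA 43 bases before the TSS, with no GATA peak called.

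Gp6, chr7:4362853-4397851 on the minus strand, encodes the platelet collagen receptor and had 2 MAC C/EBPβ and 4 MAC PU.1 peaks. A C/EBPβ and a PU.1 peak met in a Gp6 intron, 15899 and 15917 bp after the TSS. Further MAC PU.1 peaks stood 27071 and 30806 bp after the TSS, and a MAC C/EBPβ peak at 32778 bp, all within the gene span. The fourth MAC PU.1 peak lay in an intron of Ncr1, a natural killer cell receptor gene. The nearest HP peak of any factor was that of GFI1B at 80.69 kb, beyond which came PU.1 at 107.1 kb. Of coding genes, 22.1% and 63.7% had one as near. The Gp6 promoter held AGATAA 144 bases before the TSS, and no GATA factor was called near the gene.

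Vwf, chr6:125552948-125686679, encodes the adhesive multimer carried in platelet granules and in endothelial cells, and its window, at 173732 bp, was the longest of the 7 (the median over coding genes was 57219 bp). It had 1 HP PU.1 peak, 9 MAC C/EBPβ peaks and 13 MAC PU.1 peaks. The HP PU.1 peak, chr6:125603807-125604206, lay in a Vwf intron with its centre 51058 bp after the TSS, and a MAC PU.1 peak was centred at 51066 bp. Just before it, a pair of MAC C/EBPβ and MAC PU.1 peaks overlapped in a coding exon at 50425 and 50450 bp. MAC C/EBPβ and PU.1 also overlapped in introns at 19831 and 19838 bp, at 34272 and 34309 bp, and at 42078 and 42048 bp. Near the 3′ end of the gene they overlapped in an intron at 132377 and 132706 bp. Upstream there were 2 peaks, a PU.1 peak 4353 bp and a C/EBPβ peak 11873 bp before the TSS. Peaks in the last part of the gene had the TSS of Ano2, a chloride channel gene, as the nearest. No peak of any list lay within 2 kb of the Vwf TSS. No GATA1, GATA2, GFI1B or RUNX1 peak was called in the window. The nearest RUNX1 peak in HP was 71.73 kb away, and 13.5% of coding genes had one as near.

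Treml1, chr17:48359916-48367176, encodes TLT-1, a receptor stored in platelet alpha granules. It lies next to Trem2, a receptor gene of macrophages and microglia. The window held 1 HP PU.1 peak, 2 MAC C/EBPβ peaks and 9 MAC PU.1 peaks. The HP PU.1 peak, chr17:48347295-48347694, was centred 12422 bp before the Treml1 TSS in a Trem2 intron, 1093 bp from the Trem2 TSS, and the MAC PU.1 peak there was centred 12435 bp before the Treml1 TSS. At the Trem2 TSS itself MAC PU.1 was centred 13 bp and MAC C/EBPβ 50 bp away. Nearer to Treml1, MAC C/EBPβ and MAC PU.1 overlapped 3911 and 3749 bp before the TSS, and a MAC PU.1 peak lay in a Treml1 intron 4739 bp after it. The farthest MAC PU.1 peak on the 3′ side had Nfya as the nearest gene. Of the HP lists that had no peak in the window, C/EBPβ came closest at 35.51 kb, then GFI1B at 49.72 kb and GATA1 at 87.48 kb. By the most 5′ TSS of each coding gene, peaks as near as at Treml1 were found for 14.8% (C/EBPβ), 15.3% (GFI1B) and 4.1% (GATA1). For GATA2 the share was 62.9% and for RUNX1 55%. For GATA1 the same share was 49.8% at Gp9, 82.9% at Vwf, 83.8% at Gp6 and 89.8% at Pf4 and Ppbp. The Treml1 promoter held the E-box CAGATG 52 bases before the TSS.

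**Figure D3:**
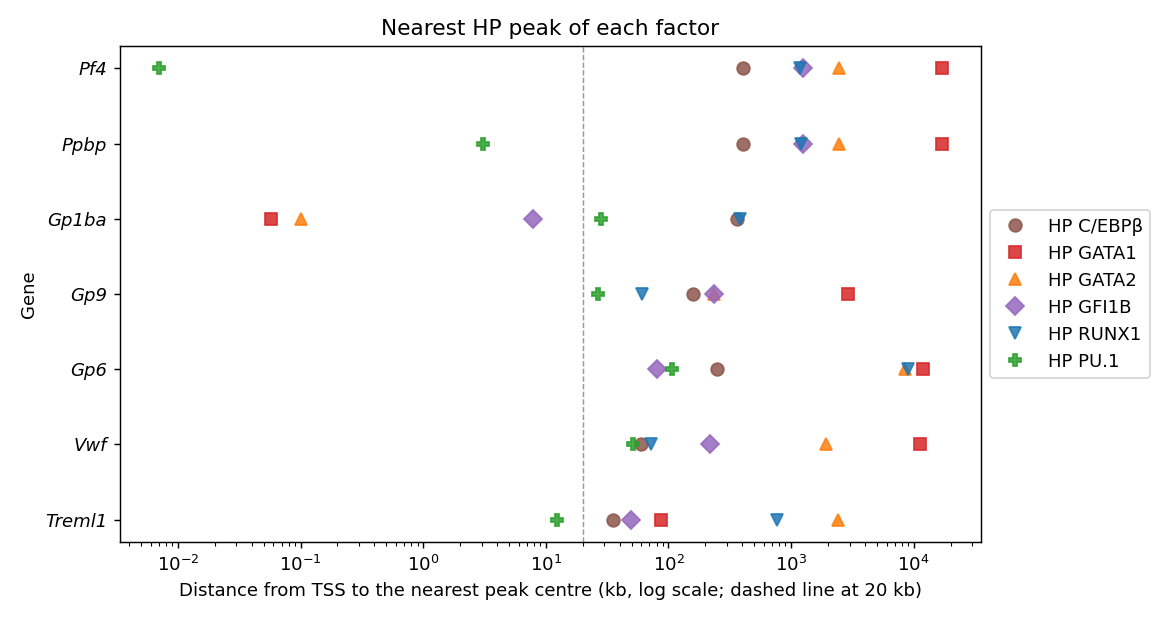
Distance in kb (log scale) from the TSS of each gene (rows) to the nearest peak centre of each HP list (symbols), with a dashed line at 20 kb; at Gp9 the GATA2 symbol is under the GFI1B symbol. GATA1 and GATA2 stand at 0.057 and 0.1 kb for Gp1ba, and HP PU.1 at 0.007 kb for Pf4.

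Within 2 kb of a TSS, MAC PU.1 had a peak at 3 of the 7 genes (Pf4, Ppbp and Gp9) against 50.0% of coding genes, and MAC C/EBPβ at 1 (Gp1ba) against 36.6%. HP PU.1 had such a peak at 1 gene, Pf4, against 9.4% of coding genes, and 1 of 7 is close to that share. For the MAC lists, the shares of the 7 genes were not above the background.

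All 5 HP PU.1 peaks overlapped a MAC PU.1 peak (100%, exact 95% interval 47.8 to 100%), with centres 1 to 21 bp apart and a median of 8 bp. The same held for 97.0% of the whole HP PU.1 list, which lies within the interval. With 5 peaks, 3 of them at Pf4 and Ppbp, the interval is too wide to show that the shares are equal. Of the 21 MAC C/EBPβ peaks, 12 overlapped a MAC PU.1 peak (57.1%, 34.0 to 78.2%), against 42.5% of the whole list, which lies within the interval. Of the 48 MAC PU.1 peaks, 12 overlapped MAC C/EBPβ (25%, 13.6 to 39.6%), against 28.5% of the whole list.

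For PU.1 and C/EBPβ, the share of peaks near the 7 genes that held the factor's letters had an interval that included the share of the whole list. GAGGAAGT occurred in 1 of the 5 HP PU.1 peaks, that at the Pf4 promoter (20.0%, 0.505 to 71.6%, against 42.1% of the list), and in 8 of the 48 MAC PU.1 peaks (16.7%, 7.48 to 30.2%, against 24.4%). The shorter GAGGAA occurred in 4 of the 5 HP peaks (80.0%, 28.4 to 99.5%, against 76.1%) and in 29 of the 48 MAC peaks (60.4%, 45.3 to 74.2%, against 65.3%). TTGCNNAA occurred in 8 of the 21 MAC C/EBPβ peaks (38.1%, 18.1 to 61.6%, against 41.9%). In 2 of the lists with no peak near the 7 genes, the factor's letters were less common than in other lists of that factor. HB GATA2 held AGATAA in 15.5% of its peaks, against 57.9% for HP GATA2. HE C/EBPβ held TTGCNNAA in 26.5%, against 61.3% for MES, 59.2% for HB and 64.0% for HP. A match is a description of letters and not a measured contact.

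To compare genes of different length, peaks were also expressed per 10 kb of window. For MAC PU.1, Gp1ba had 2.673 peaks per 10 kb, more than 99.4% of coding genes. Treml1 followed with 1.904 (above 95.6% of coding genes), then Pf4 with 1.465 (89.4%) and Ppbp with 1.444 (88.9%). Gp9 (0.9163), Vwf (0.7483) and Gp6 (0.5333) lay between the coding median of 0.5243 and the upper quartile of 1.001. Of the 12 MAC PU.1 peaks near Gp1ba, 10 were nearest to the TSS of another gene, and none overlapped the Gp1ba span. The 9 near Treml1 include those at Trem2. The density at Vwf was thus ordinary although its 13 peaks were the highest count.

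For MAC C/EBPβ, Gp1ba again had the highest density, 1.114 per 10 kb (above 94.2% of coding genes, median 0.3165). The other 6 genes lay between 0.2291 (Gp9) and 0.518 (Vwf), inside the quartiles of coding genes. For HP PU.1, Pf4 had 0.7326 and Ppbp 0.7221 peaks per 10 kb, above 99.6% and 99.5% of coding genes, from the same 3 peaks. Treml1 had 0.2116 and Vwf 0.05756, and the coding median was 0.

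**Figure D4:**
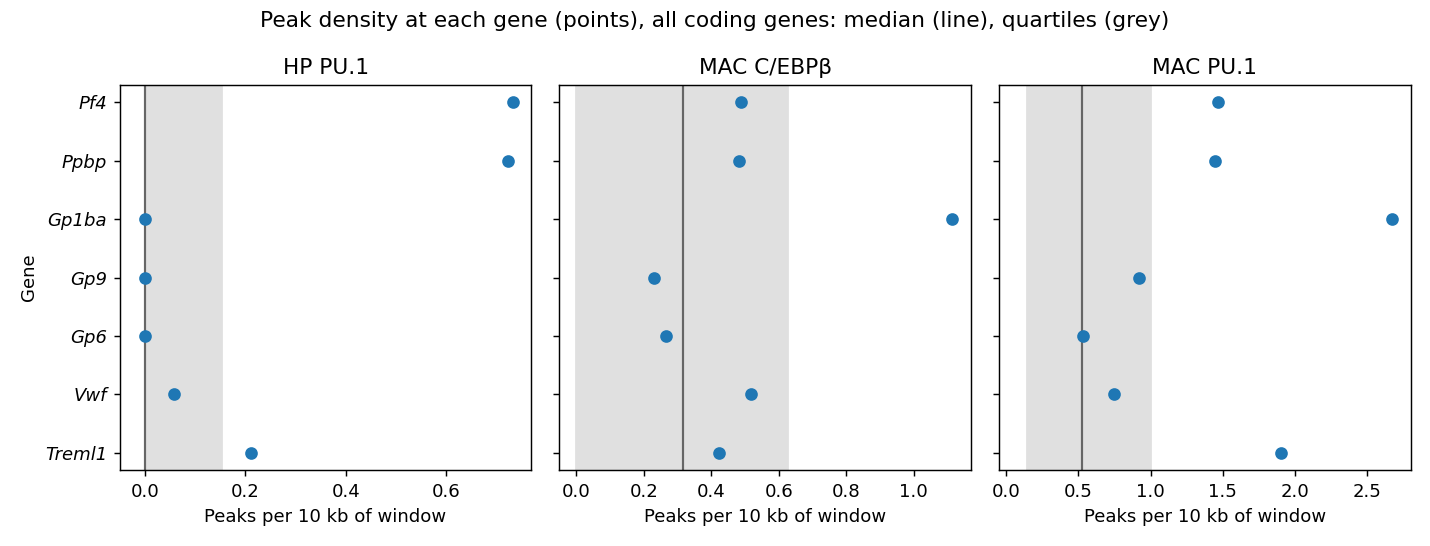
Peaks per 10 kb of window at each gene (points) for HP PU.1, MAC C/EBPβ and MAC PU.1, with the median (line) and the quartiles (grey) over all coding genes; each panel has its own x axis. Pf4 and Ppbp lie far to the right for HP PU.1 at 0.7326 and 0.7221, and Gp1ba for MAC PU.1 at 2.673.

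A list of 30 other platelet genes (16 receptors, 6 granule genes and 8 genes of cytoskeleton and secretion) was read by the same rule. HP PU.1 had a peak at 18 of them, HP C/EBPβ at 12, HP RUNX1 at 7, HP GATA2 and HP GFI1B at 5 each and HP GATA1 at 1. As shares of the list these were 60.0%, 40.0%, 23.3%, 16.7%, 16.7% and 3.33%, against the backgrounds of 38.2%, 14.8%, 7.79%, 3.36%, 11.8% and 1.75% already given. Selp and F5 share a region that counts at both genes for PU.1, C/EBPβ, RUNX1 and GATA2. The 30 genes were chosen from general knowledge, and their use in other blood cells was not examined. HP C/EBPβ and HP RUNX1 had no peak at any of the 7 genes. MAC C/EBPβ had a peak at all 30 genes, against 73.8% of coding genes, and MAC PU.1 at 29, against 79.1%. The gene without a MAC PU.1 peak was Mmrn1. MAC RUNX1 had a peak at 2 (0.478% of coding genes), Selp and F5, which share it. In MES, C/EBPβ and ELK4 had a peak at 1 gene each (6.47% and 4.66% of coding genes), and in HB C/EBPβ at 1 (4.24%). HB GATA2 (0.363%) and HE C/EBPβ (0.684%) had a peak at none.

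**Figure D5:**
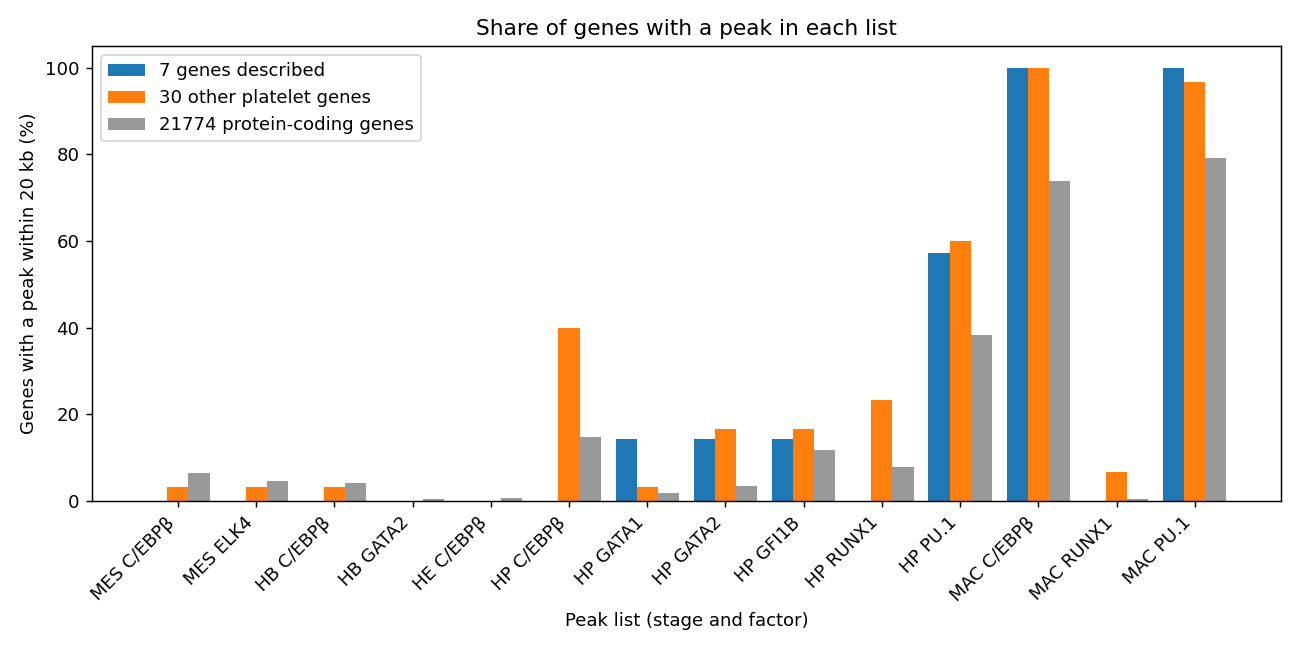
Percent of genes with a peak within 20 kb of the gene span (y axis) in each list (x axis) for the 7 genes, the 30 other platelet genes and all 21774 protein-coding genes. For HP RUNX1 the 30 genes reach 23.3% and HP C/EBPβ 40.0%, and none of the 7 genes has a peak in either list.

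At 12 of the 30 genes at least 1 of HP GATA1, GATA2, GFI1B and RUNX1 had a peak, against 19.4% of coding genes with a peak of any of these 4 lists. Nbeal2, needed for alpha granules, had GATA2, RUNX1 and PU.1 peaks together in a Ccdc12 intron, centred 11950, 11914 and 11955 bp before its TSS, and a GFI1B peak 14655 bp before it. F2rl3, a thrombin receptor gene, had GATA2, GFI1B and PU.1 peaks at its promoter, centred 186, 83 and 120 bp before the TSS. Selp (P-selectin) and F5 (coagulation factor V) shared a region in a Selp intron with C/EBPβ, GATA2, RUNX1 and PU.1 peaks, at 20301, 20148, 20340 and 20215 bp after the Selp TSS. Itgb3, the beta chain that pairs with CD41, had GFI1B and RUNX1 peaks in an intron, at 10996 and 10999 bp. These 5 genes had peaks in 2 or more of the 4 lists, and the other 7 of the 12 had a peak in 1. Cd9, a tetraspanin gene, had a RUNX1 peak at 13538 bp, F2r, another thrombin receptor gene, a RUNX1 peak 125 bp before its TSS, and F2rl2 a GFI1B peak 17444 bp before its TSS. Fermt3, which encodes the integrin activator kindlin-3, was the gene of the 30 with an HP GATA1 peak, while P2rx1, an ATP receptor gene, had a RUNX1 peak and Vps33b, a gene of granule formation, a GFI1B peak. At Itga2b, the gene of the CD41 antigen used for sorting, the HP lists gave 1 GATA2 peak and 2 PU.1 peaks. Gp1bb and Gp5, which encode the remaining subunits of the receptor with GP1BA and GP9, had no GATA1, GATA2, GFI1B or RUNX1 peak in HP.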

How the data were processed

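Peak lists of 7 TFs at 5 stages, 14 in all, were analysed as deposited. The authors, by their methods, trimmed reads with CutAdapt, aligned them to mm10 with Bowtie, removed duplicates with Picard, called peaks with MACS against the stage's input at a threshold chosen by eye for each list, and refined them with polyPeak. Some lists combined sequencing runs. The versions of these tools are not given in the sources used here. The sequence and position of 1 peak are not reported here. The deposited values are peak starts and ends in bp, with no score, and each peak is 400 bp wide. Read numbers per library were not used here, and a threshold set per list means that counts do not compare amounts of binding between lists.

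RefSeq GRCm38.p6, the same build, gave gene spans, curated TSS (26906 of coding transcripts) and sequence. Promoter sequences were from RefSeq on GRCm38 and matched for 6 of the 7 genes (not Vwf). An overlap was at least 1 bp, and a promoter peak had its centre within 2 kb of a TSS. Positions before the TSS count backward from it. Letters were searched on both strands (TTGCNNAA for C/EBP, GAGGAAGT for PU.1, AGATAA for GATA factors, AATCNNNGC for GFI1B, TGTGGTT for RUNX, CCGGAAGT for ETS factors and CAGATG for an E-box). GAGGAA lies within GAGGAAGT and GATAA within AGATAA, and these shorter letters were chosen after the peaks were seen. Backgrounds are shares of 21774 coding genes under the same rule. Shares of genes with a peak as near use 1 TSS per gene, the most 5′ curated one. Shares within 2 kb use every curated TSS. Intervals are exact Clopper-Pearson 95% intervals and cover counting error only. With 1 list per group, no test between groups was possible.

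The genes and lists were chosen with earlier results of these data known. Text names all 7 genes, the coding genes nearest to or under their peaks, and, of the 30 other platelet genes with a peak of HP GATA1, GATA2, GFI1B or RUNX1, up to 8 with the most of these lists, with ties broken by symbol. Fermt3, P2rx1, Vps33b, Itga2b, Gp1bb, Gp5 and Mmrn1 were named after their values were seen. Alternatives were other windows, overlaps, gene assignment, promoter distance and search width. Calculations used Python 3.11.15, NumPy 2.4.6, SciPy 1.17.1, pysam 0.24.0, samtools 1.23.1 and Matplotlib 3.10.9, and the overlap code was tested on simulated data.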

Additional observations from a re-analysis of the deposited data

How the results depend on the processing

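Requiring the peak centre in the window or an overlap of 200 bp changed no count by more than 1.5 times. With the gene span alone, 13 of the 98 pairs of gene and list had a peak and 25 regions remained. HP PU.1 then had a peak at 2 of the 7 genes (20.2% of coding genes by the same rule), MAC C/EBPβ at 3 (51.5%) and HP GFI1B at 0 (5.72%). By that rule Gp1ba and Vwf each had peaks in 3 lists, the most of the 7 genes. With 50 kb each side there were 111 regions, and HP PU.1 had a peak at 6 genes (53.0% of coding genes), HP GFI1B at 2 (19.0%), HP C/EBPβ at 1 (23.4%) and MES C/EBPβ at 1 (10.5%). Assigning peaks to the coding gene with the nearest TSS gave 32 regions, HP PU.1 at 2 genes (29.7% of coding genes) and HP GFI1B at 0 (8.14%). HP GATA1 and HP GATA2 had a peak at 1 gene, Gp1ba, under every window and assignment run. Over the 18861 coding genes with a window between the shortest and longest of the 7 (40949 to 173732 bp), the share was 76.2% for MAC C/EBPβ. For MAC PU.1 it was 81.8%. This range holds most coding genes and is not a match of each gene's length. Within 1 kb of a member TSS there were 7 peak centres, against 9 within 2 kb. With the letters searched in the central 200 bp, the counts of peaks with a factor's own letters were as in the whole peak. Of the 30 other platelet genes, those with an HP GATA2 peak numbered 3 with 10 kb each side (2.44% of coding genes) and 2 with the gene span alone (1.39%), against 5 in the main window. Those with an HP GFI1B peak numbered 3 with 10 kb (9.12%), 2 with the gene span (5.72%) and 9 with 50 kb (19.0%), against 5. HP GATA1 had a peak at 4 with 50 kb (3.13%) and at 2 by the nearest TSS (1.07%), against 1. With the gene span alone HP C/EBPβ had a peak at 5 (6.71%) against 12 and HP PU.1 at 11 (20.2%) against 18. With 50 kb, HB C/EBPβ had a peak at 5 of the 30 (6.84%; 2 and 3.08% by the nearest TSS) and MES C/EBPβ at 3 (10.5%), against 1 each. MES ELK4 had a peak at 0 with the gene span (2.1%) or the nearest TSS (2.33%), against 1, and MAC RUNX1 at 1 with 10 kb (0.358%), the gene span (0.22%) or the nearest TSS (0.326%), against 2. The HP RUNX1 count stayed between 5 and 7, with 3.59% to 12.4% of coding genes.

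A stricter peak threshold was not run because the lists hold no score per peak. No paired analysis was possible because every group holds 1 list. Leaving out replicates was not applicable. Read numbers per library were not used here, and the peak lists give no signal from which a detection limit can be had.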

Other observations

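Among the early lists, which had no peak near the 7 genes, the closest was MES C/EBPβ, with a peak centre 23.45 kb from the Gp1ba TSS (4.42% of coding genes had one as near). In HB, the nearest GATA2 peak was 236.5 kb from Treml1 and 338.9 kb from Gp9, in a list of 97 peaks, and 1.78% and 2.58% of coding genes had one as near. The same share was 5.24% for Vwf, 51.2% for Pf4 and Ppbp, 76.3% for Gp1ba and 94% for Gp6. All these HB GATA2 peaks lay outside the windows of 20 kb and of 50 kb. The genes nearest to them were not examined, so the shares describe distance only. The nearest GATA2 and GFI1B peaks of HP to Gp9, the adhesion receptor subunit gene, lay together, 235.9 and 235.8 kb away. No test was run on these values.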
